A study of Cyprinus carpio with 6 samples.

Results

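The genes described here encode the sodium pump and the cation-chloride cotransporters of the SLC12 family, which together set the sodium, potassium and chloride gradients across brain cell membranes. They are the rows of the deposited carp gene table whose description names a sodium/potassium-transporting ATPase subunit or a solute carrier family 12 member, and they number 74 of 53152. The set holds 12 alpha, 11 beta and 4 gamma subunit copies of the pump. It also holds 10 copies of the beta-1-interacting proteins (NKAIN), which carry the pump's name in their description without being pump subunits. The other 37 are SLC12 copies, of which 10 belong to the chloride-loading members SLC12A1 to SLC12A3, 17 to the chloride-extruding members, which include SLC12A4, SLC12A5 and SLC12A7, and 10 to SLC12A8 and SLC12A9. Most of these genes have more than 1 row. Each row is a gene model, called a copy here, and some are described as partial. RefSeq's gene table marks LOC109049491, LOC109052056 and LOC109057198 as pseudogenes. Counts of copies are thus counts of rows, and whether several rows are pieces of 1 gene was not tested.

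Brain messenger RNA of common carp (Cyprinus carpio) was sequenced in 6 libraries, 3 labelled with the agent lead and 3 with no agent (control), to ask how lead injures the brain. The labels give neither the dose, the duration of exposure, the age or strain of the fish, nor whether different fish stand behind the libraries. All p-values below thus rest on library-to-library spread within these samples, part of which may be technical. In bulk tissue, fewer cells of a type and less RNA per cell cannot be told apart.

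The sodium pump exchanges intracellular sodium for extracellular potassium at the cost of ATP. Its alpha subunit carries the catalytic site, its beta subunit brings the enzyme to the membrane, and its gamma subunit belongs to the FXYD proteins that tune its affinity for ions. In mammalian brain, alpha-3 is the form of neurons, alpha-2 and beta-2 are mainly glial, and alpha-1 is found in most cells. SLC12A2 (NKCC1) uses the sodium gradient to load chloride into cells, while SLC12A5 (KCC2), a neuronal cotransporter, extrudes chloride with potassium and so lets GABA and glycine inhibit mature neurons. Lead is known to inhibit the pump's enzyme activity, which RNA levels do not measure.

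Total counts over genes lay between 27841520 and 32826120 in lead libraries and between 31159339 and 34848243 in control libraries. Neuronal, astroglial and oligodendrocyte markers were all abundant, with summed levels of 2936 to 3221, 4081 to 4989 and 2647 to 2712 FPKM in lead libraries and 3116 to 3667, 5123 to 5553 and 2575 to 4978 FPKM in control libraries, as the brain label implies. FPKM is the deposited level per length of transcript and is used here to compare levels between genes. Differences between lead and control brains were tested on counts with edgeR, and are given in TMM-scaled CPM, which are counts relative to library size after correction for composition. Its factors were 0.946 to 0.999 in lead libraries and 1.01 to 1.06 in control libraries, so that a difference of lead over control reads slightly higher in CPM than in FPKM.

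Several copies of the chloride-extruding SLC12A5 and of the pump's beta-2 subunit, and short gene models of alpha-1 and alpha-3, were lower in lead brains at an unadjusted p under 0.05. The most abundant copies of alpha-3, alpha-1, beta-1 and beta-3 were not past that threshold in either direction. Genes were tested if 3 or more libraries reached an FPKM of 1, which 53 members did. EdgeR called 0 of these 53 after Benjamini-Hochberg adjustment (adjusted p under 0.05), where 0.0124% of the 32149 genes tested were called lower and 0.0467% higher with lead. At an unadjusted p under 0.05, 12 members were lower and 4 higher, against 8.77% of all genes tested lower and 7.54% higher. DESeq2, a second count test, called 7 members at an adjusted p under 0.05, all lower with lead, where it called 2.22% of genes lower and 1.95% higher. The libraries of the lead and control groups did not overlap for 13 members on the lower side and 5 on the higher side, against 12.6% and 11.9% of all genes. The members' median log2 fold change was -0.17, against -0.0088 over all genes tested, with 33 members below 0 and 20 above it, where 50.8% of all genes lay below 0. A single member, the SLC12A5 copy LOC109110634, passed the filter through control libraries alone, so that its direction follows from the filter; it is 1 of the 12 lower members and of the 7 that DESeq2 called. Among the 31 tested pump and NKAIN members, 7 were lower and 3 higher, and 1 in place of 3 was higher with any 1 of control replicates 2 and 3 or lead replicates 1 and 2 left out. Among the 22 tested SLC12 members, 5 were lower and 1 higher, with 3 lower without control replicate 3 and 2 higher without control replicate 2. The log2 fold changes of the tested copies are plotted by subunit and family member.

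**Figure D1:**
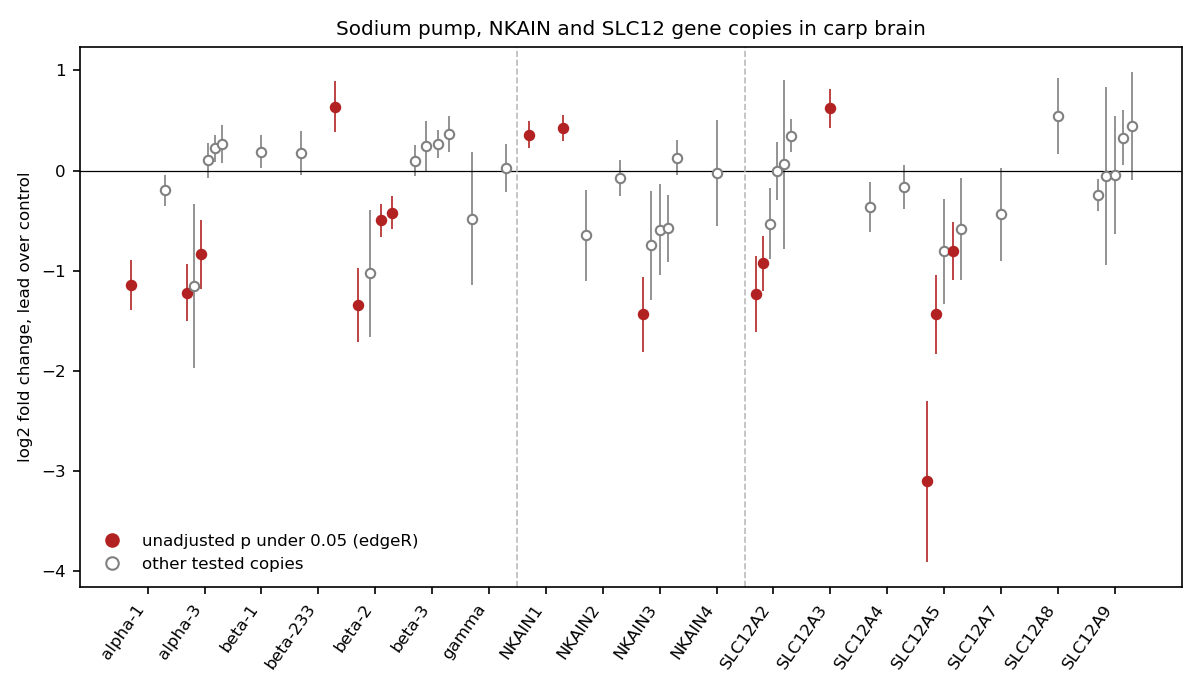
Log2 fold change of lead over control (vertical axis) for tested copies of the classes shown, grouped by pump subunit, NKAIN protein and SLC12 member, with bars of 1 SE from edgeR. Filled points mark an unadjusted p under 0.05 and open points the other copies. The SLC12A5 copies all lie below 0, as do the beta-2 copies, and the lowest point is LOC109110634 at -3.11.

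Among alpha subunits, the most abundant copies of the neuronal alpha-3 were not past an unadjusted p of 0.05, while 2 of 3 short copies were lower. Over all genes tested, 8.77% were lower at that threshold. The summed alpha-3 level was 607, 641 and 515 FPKM in lead brains, against 615, 618 and 567 in control brains. These sums overlapped, and alpha-3 made up most of the summed level of the rows described as alpha subunits in every library. LOC109084072, named atp1a3a in RefSeq, had 327, 401 and 298 FPKM in lead brains, against 347, 367 and 313 in control brains, the highest level of any member. Its log2 fold change was 0.10 (SE 0.17, unadjusted p = 0.568). LOC109062485 (0.26, unadjusted p = 0.204) and LOC109105196, named atp1a3b (0.22, unadjusted p = 0.132), also had values slightly above 0 with overlapping libraries.

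The copy with the clearest difference in alpha-3 was LOC109044951, which the table places on sequence NC_031736.1 from 16727457 to 16732822 on the plus strand, of an assembly not given in the sources used here. It had 6.56, 13.6 and 11.1 TMM-scaled CPM in lead brains, against 25.7, 19.6 and 27.4 in control brains. All 3 lead libraries lay below all 3 control libraries, and the log2 fold change was -1.22 (SE 0.28, unadjusted p = 0.00277, edgeR adjusted p = 0.173). DESeq2 gave it an adjusted p of 0.00733. LOC109065990 had 3.05, 5.20 and 7.38 TMM-scaled CPM in lead brains, against 10.7, 7.82 and 9.47 in control brains, again without overlap, with a log2 fold change of -0.84 (SE 0.34, unadjusted p = 0.0415). Omitting 1 library gave unadjusted p-values of 0.109 (control replicate 1), 0.0845 (control replicate 3), 0.0936 (lead replicate 1) and 0.0869 (lead replicate 2). In LOC109112427 the libraries overlapped, and the log2 fold change was -1.15 (SE 0.82, unadjusted p = 0.201). These 3 copies have implied transcript lengths of 538 to 810 bases, against 2295 to 3937 for the 3 abundant ones. Together they held 2.59%, 5.26% and 5.51% of the alpha-3 FPKM in lead brains, against 9.40%, 8.15% and 12.3% in control brains. The highest lead share was below the lowest control share.

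Of the ubiquitous alpha-1, 5 copies were annotated and 2 tested. The more abundant one, LOC109060282, had 265, 305 and 259 TMM-scaled CPM in lead brains, against 355, 329 and 267 in control brains. Lead and control libraries overlapped, with a log2 fold change of -0.20 (SE 0.16, unadjusted p = 0.242). The other, LOC109052054, lies on sequence NW_017537788.1 from 223443 to 226689 on the plus strand, and had the smallest p of any member. It had 27.7, 32.7 and 43.05 TMM-scaled CPM in lead brains, against 87.6, 53.3 and 87.5 in control brains. No lead library reached the lowest control library, and the log2 fold change was -1.14 (SE 0.25, unadjusted p = 0.00176, edgeR adjusted p = 0.159). DESeq2 called it, with an adjusted p of 0.00202. Its log2 fold change stayed between -1.34 and -1.001 over 16 alternative settings and its unadjusted p was at most 0.00847. The other 3 alpha-1 copies and the 1 alpha-2 copy, LOC109108539, were too low to test. The highest FPKM among these 4 was 3.11, reached by LOC109052056 in control replicate 2, its only library with reads. This only row described as alpha-2, the main glial alpha in mammals, was at most 0.562 FPKM in any library. Rows with the same KEGG number, an orthology label, but no isoform in their description are outside the set. They include LOC109052027 and LOC109112033, both described as hypothetical proteins, with mean levels of 397 and 268 FPKM over the 6 libraries. LOC109103237, with 224 FPKM, carries the number too but is described as ran-binding protein 3-like, and further such rows as calsequestrin. Whether any of these rows is a pump gene, and of which isoform, is not given, so the level of alpha-2 in these brains is not settled. The levels of the alpha and beta copies are plotted by library.

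**Figure D2:**
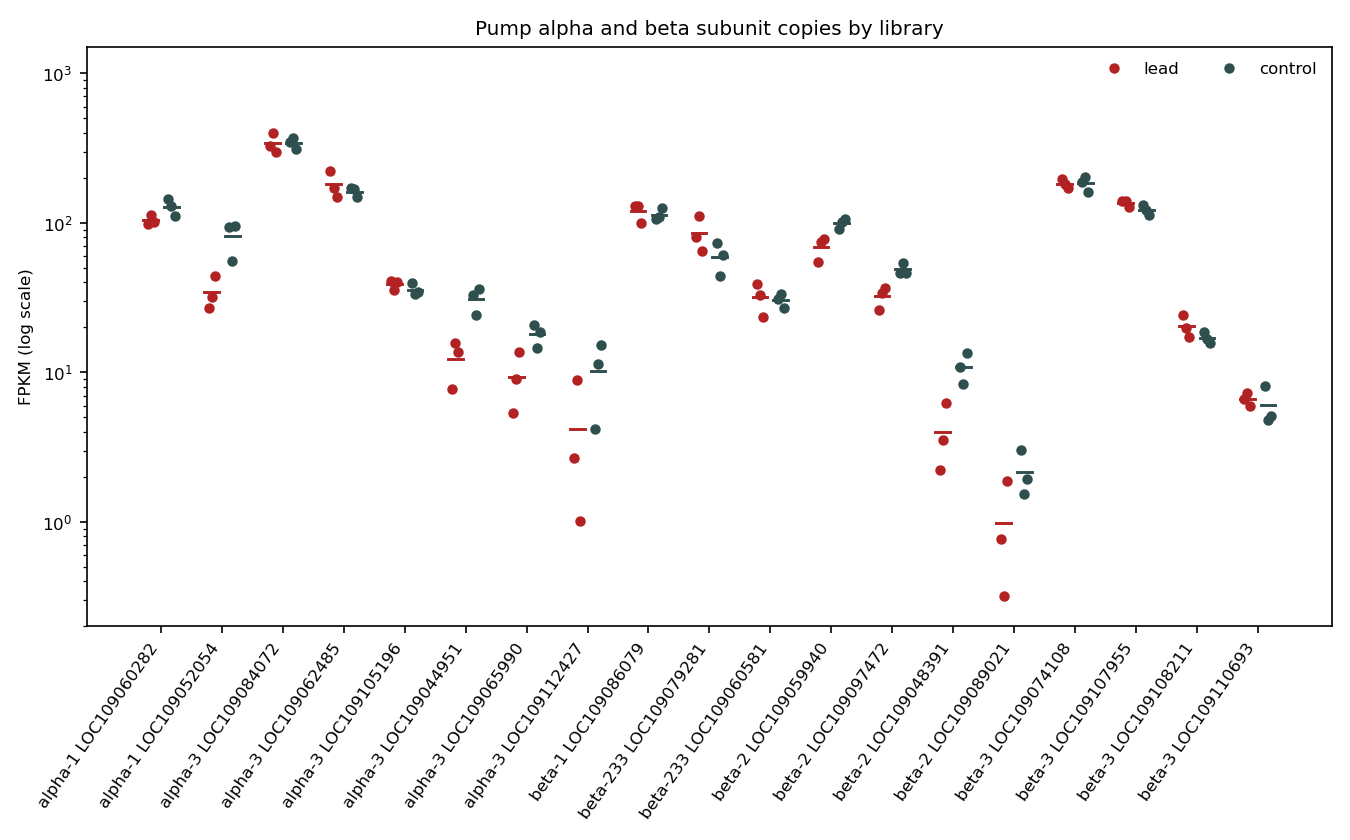
FPKM (log axis) of each tested alpha and beta subunit copy in the 3 lead and the 3 control libraries, with bars at the group means, sorted by isoform and level. The abundant alpha-3 and beta-3 copies overlap between groups. LOC109052054, LOC109044951 and 3 of the 4 beta-2 copies lie lower in every lead library.

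Among beta subunits, 3 of 4 beta-2 copies were lower with lead, and no copy described as beta-1 or beta-3 had an unadjusted p under 0.05. Over all genes tested, 8.77% were lower at that threshold and 7.54% higher. Of 2 copies described as beta-233, 1 was higher. All 4 beta-2 copies were tested and had values below 0, and the 3 that were lower had no overlap between groups. Lead libraries lay below control libraries without overlap in 12.6% of all genes tested. The summed beta-2 level was 83.8, 112 and 123 FPKM in lead brains, against 151, 165 and 168 in control brains. The highest lead sum lay below the lowest control sum, and the mean was 106 ± 20.3 FPKM in lead brains and 161 ± 9.02 in control brains (SD, n = 3 each).

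The abundant beta-2 copy LOC109059940 had 159, 218 and 218 TMM-scaled CPM in lead brains, against 242, 278 and 276 in control brains. Its log2 fold change was -0.42 (SE 0.16, unadjusted p = 0.0347, edgeR adjusted p = 0.276). Leaving out 1 library gave unadjusted p-values of 0.0746 (control replicate 2), 0.0931 (control replicate 3) and 0.12 (lead replicate 1), and edgeR with no trend and not robust gave 0.0733. LOC109097472 had 49.8, 64.5 and 66.4 TMM-scaled CPM in lead brains, against 79.8, 96.7 and 78.8 in control brains, a log2 fold change of -0.50 (SE 0.16, unadjusted p = 0.0169, edgeR adjusted p = 0.228). Its unadjusted p was 0.056 without control replicate 2 and 0.0611 without lead replicate 1. The low-level copy LOC109048391, named atp1b2b in RefSeq and located on sequence NC_031741.1 from 7262434 to 7273663 on the minus strand, showed a larger difference. It had 2.88, 4.52 and 7.57 TMM-scaled CPM in lead brains, against 12.7, 10.1 and 15.3 in control brains, without overlap. The log2 fold change was -1.35 (SE 0.37, unadjusted p = 0.00667, edgeR adjusted p = 0.197), DESeq2 gave an adjusted p of 0.0267, and the unadjusted p stayed under 0.05 in each of 16 alternatives. LOC109089021, the lowest of the 4, overlapped between groups (-1.03 (SE 0.63, unadjusted p = 0.145)).

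The beta-3 copies had log2 fold changes between 0.10 and 0.36, all above 0 and none at an unadjusted p under 0.05. The most abundant, LOC109074108 (atp1b3b in RefSeq), had 197, 181 and 172 FPKM in lead brains, against 188, 203 and 162 in control brains, with overlapping libraries. LOC109107955 had 309, 307 and 266 TMM-scaled CPM in lead brains, against 262, 251 and 220.2 in control brains, without overlap on that scale, and a log2 fold change of 0.27 (SE 0.14, unadjusted p = 0.0931). The only copy described as beta-1, LOC109086079, had 326, 324 and 237 TMM-scaled CPM in lead brains, against 242, 257 and 278 in control brains. Its log2 fold change was 0.19 (SE 0.16, unadjusted p = 0.281). Of 2 copies described as subunit beta-233, LOC109079281 had 197, 273 and 151 TMM-scaled CPM in lead brains, against 163, 102 and 134 in control brains. The lowest lead library lay below the highest control library, and the log2 fold change was 0.64 (SE 0.26, unadjusted p = 0.0377, edgeR adjusted p = 0.284). It lost an unadjusted p under 0.05 in 9 of 16 alternatives. Those included leaving out control replicate 2 (unadjusted p = 0.113), control replicate 3 (0.0839), lead replicate 1 (0.0607) or lead replicate 2 (0.145). The second beta-233 copy, LOC109060581, which RefSeq gives the beta-1 symbol atp1b1a, was at 0.17 (SE 0.22, unadjusted p = 0.456).

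Among gamma subunits, 2 of 4 copies could be tested and neither had an unadjusted p under 0.05. LOC109083365, whose row also names FXYD7, had 16.4, 67.7 and 18.1 TMM-scaled CPM in lead brains, against 29.3, 74.4 and 38.6 in control brains. Replicate 2 was the highest library of both groups, and the log2 fold change was -0.48 (SE 0.66, unadjusted p = 0.498). Without lead replicate 2 it was -1.46 (unadjusted p = 0.0121), and without control replicate 2 it was 0.0022 (unadjusted p = 0.998). LOC109086100, described first as an uncharacterized protein, was at 0.03 (SE 0.24, unadjusted p = 0.913). LOC109085289 had no counts in any library and LOC109078548 stayed under 1 FPKM.

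The NKAIN proteins, neuronal membrane proteins that bind the beta-1 subunit, differed in both directions. Both NKAIN1 copies were higher with lead and did not overlap, although LOC109070186 missed an unadjusted p of 0.05 in 8 of 16 alternatives. Over all genes tested, 7.54% were higher at that threshold, and 11.9% did not overlap on the higher side. On the lower side these shares were 8.77% and 12.6%. LOC109110964 had 131, 142 and 118 TMM-scaled CPM in lead brains, against 94.1, 102 and 94.97 in control brains, and a log2 fold change of 0.43 (SE 0.13, unadjusted p = 0.0117, edgeR adjusted p = 0.214). LOC109070186 had 71.1, 66.96 and 59.3 TMM-scaled CPM in lead brains, against 52.8, 50.6 and 50.4 in control brains, and a log2 fold change of 0.36 (SE 0.13, unadjusted p = 0.0262, edgeR adjusted p = 0.254). Its unadjusted p was 0.0562 with control replicate 2 omitted, 0.0694 (control replicate 3), 0.0813 (lead replicate 1) or 0.0658 (lead replicate 2). It was 0.0702 with library totals only, 0.095 and 0.0923 with limma on log2 FPKM, and 0.0642 with edgeR with no trend and not robust. The summed NKAIN1 level was 84.3, 87.7 and 78.6 FPKM in lead brains, against 66.9, 67.9 and 67.97 in control brains. One of 5 NKAIN3 copies was lower: LOC109112187, which RefSeq names nkain4, had 1.41, 3.0 and 2.93 TMM-scaled CPM in lead brains, against 5.36, 6.35 and 8.16 in control brains. Its log2 fold change was -1.44 (SE 0.37, unadjusted p = 0.00502, edgeR adjusted p = 0.189), and DESeq2 gave an adjusted p of 0.0253. LOC109095547, named nkain5 in RefSeq, was also lower in every lead library, at -0.58 (SE 0.33, unadjusted p = 0.123). The abundant NKAIN3 copy LOC109070507 had 51.8, 51.8 and 52.7 TMM-scaled CPM in lead brains, against 37.8, 58.4 and 46.9 in control brains, which overlapped (0.13 (SE 0.18, unadjusted p = 0.488)). The remaining NKAIN copies overlapped between groups, with log2 fold changes from -0.75 to -0.02. The more abundant NKAIN2 copy, LOC109113605, had 15.8, 16.4 and 16.6 TMM-scaled CPM in lead brains, against 14.5, 16.8 and 19.9 in control brains, and NKAIN4 was near the filter with 0.636, 1.22 and 1.01 TMM-scaled CPM in lead brains, against 0.801, 1.07 and 1.03 in control brains.

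Among chloride-extruding cotransporters, 3 of 5 tested copies of the neuronal SLC12A5 were lower in lead brains at an unadjusted p under 0.05. The direction of 1 of these, LOC109110634, follows from the filter, which it passed through control libraries alone. Over all genes tested, 8.77% were lower at that threshold. After adjustment, edgeR called 0 of the copies. All 10 SLC12A5 copies had a lower mean in lead than in control brains. Their summed level was 10.4, 7.24 and 16.3 FPKM in lead brains, against 28.95, 17.6 and 45.4 in control brains. The groups did not overlap, although the highest lead sum and the lowest control sum were close. The mean was 11.3 ± 4.59 FPKM in lead brains and 30.7 ± 14.0 FPKM in control brains (SD, n = 3 each), a ratio of 0.37. Control replicate 3 had the highest sum, of which LOC109110634 gave 11.9 FPKM, and lead replicate 2 the lowest.

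Of the 10 SLC12A5 copies, 5 passed the filter. One of the 3 that were lower, LOC109110634, passed through control libraries alone, so that 2 of the other 4 were lower. With no filter beyond 1 count, 5 of the 10 were lower, and 0 higher, against 6.35% and 5.6% of the genes tested in that way. LOC109110634, named slc12a5a in RefSeq and located on sequence NC_031732.1 from 16565067 to 16583532 on the plus strand, had 1.24, 0.836 and 1.28 TMM-scaled CPM in lead brains, against 3.95, 3.19 and 21.9 in control brains. Control replicate 3 stood far above the other libraries, and the lead libraries were all under the control libraries. The log2 fold change with no filter was -3.08 (SE 0.81, unadjusted p = 0.00723), and with the filter, which had fixed its direction, -3.11, or -1.67 without control replicate 3.

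LOC109090241 had 2.98, 1.67 and 3.72 TMM-scaled CPM in lead brains, against 6.10, 6.07 and 10.6 in control brains, without overlap. Its log2 fold change was -1.44 (SE 0.39, unadjusted p = 0.00643, edgeR adjusted p = 0.195), with a DESeq2 adjusted p of 0.0299 and an unadjusted p of at most 0.0298 in 16 alternatives. The copy with the most counts, LOC109052155, had 9.14, 7.48 and 15.7 TMM-scaled CPM in lead brains, against 18.4, 16.8 and 21.4 in control brains. It did not overlap, with a log2 fold change of -0.81 (SE 0.29, unadjusted p = 0.0242, edgeR adjusted p = 0.249). Leaving out control replicate 3 gave an unadjusted p of 0.0752, lead replicate 1 one of 0.0762 and lead replicate 2 one of 0.073. LOC109109484 (-0.81 (SE 0.52, unadjusted p = 0.162)) and LOC109058140 (-0.58 (SE 0.51, unadjusted p = 0.288)) overlapped. Among the copies below the filter, LOC109051997 (-1.51, unadjusted p = 0.02) and slc12a5 (-1.73, unadjusted p = 0.0405) were lower when no filter was used. The values of the 10 copies are plotted by library.

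**Figure D3:**
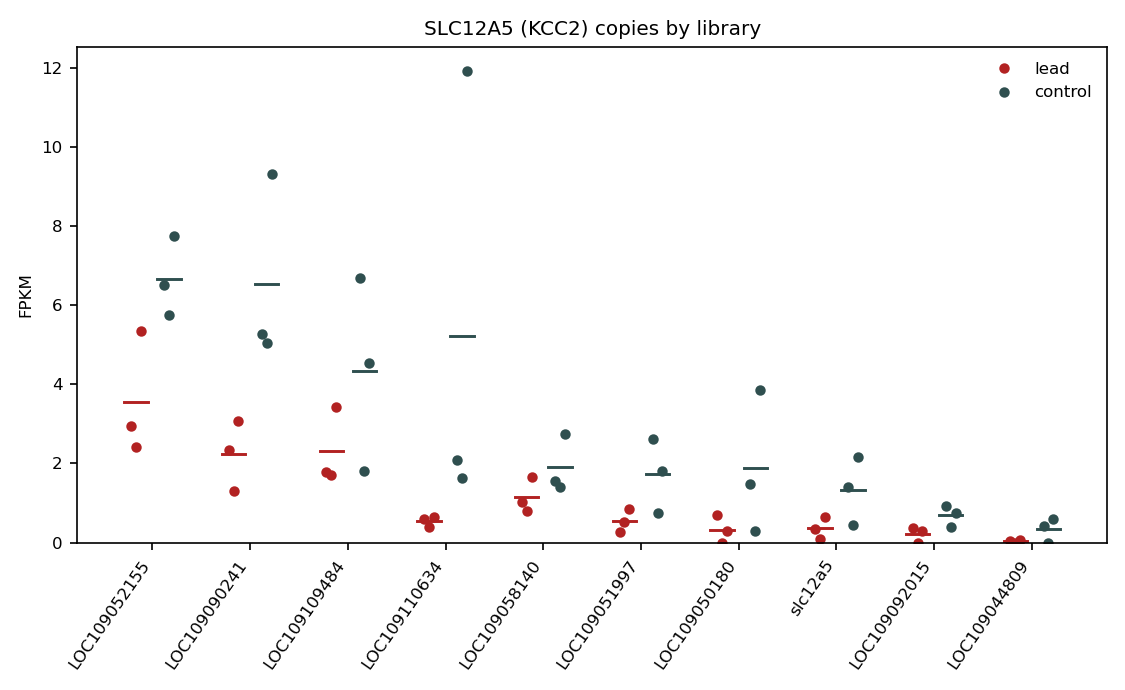
FPKM of each of the 10 SLC12A5 copies in the 3 lead and the 3 control libraries, with bars at the group means, sorted by mean level. The lead mean lies below the control mean in every copy, and control replicate 3 of LOC109110634, at 11.9, is the highest point.

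SLC12A4 (KCC1), found in most cells, had 2 tested copies, LOC109058338 (-0.37 (SE 0.25, unadjusted p = 0.178)) and LOC109046324 (-0.17 (SE 0.22, unadjusted p = 0.47)). LOC109058338 had 7.90, 12.1 and 9.40 TMM-scaled CPM in lead brains, against 15.1, 12.8 and 9.98 in control brains, with overlap. Of 4 SLC12A7 (KCC4) copies, LOC109053127 was tested, with 6.89, 2.16 and 2.87 TMM-scaled CPM in lead brains, against 5.05, 4.26 and 6.86 in control brains and a log2 fold change of -0.44 (SE 0.46, unadjusted p = 0.371). Without lead replicate 1 this was -1.09 (unadjusted p = 0.0214). The other 3 SLC12A7 copies stayed under 1 FPKM.

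Among chloride-loading cotransporters, 2 of 6 tested SLC12A2 copies were lower and 0 higher, and slc12a3 was higher with lead. The cut was an unadjusted p of 0.05, which 8.77% of all genes tested passed on the lower side and 7.54% on the higher. The summed SLC12A2 level was 95.6, 59.9 and 62.5 FPKM in lead brains, against 107, 66.7 and 108 in control brains, with overlap. The ratio of summed SLC12A5 to summed SLC12A2 FPKM was 0.109, 0.121 and 0.261 in lead brains, against 0.270, 0.264 and 0.422 in control brains. The highest lead ratio was just below the lowest control ratio, and summed SLC12A2 varied widely within both groups. This separation depends on LOC109110634, which gave 0.652 FPKM of the SLC12A5 sum in lead replicate 3 and 1.63 FPKM in control replicate 2.

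LOC109097729, named slc12a2 in RefSeq, had 109.8, 96.6 and 93.6 TMM-scaled CPM in lead brains, against 63.2, 91.3 and 81.04 in control brains. The libraries did not overlap, but the log2 fold change of 0.35 (SE 0.17, unadjusted p = 0.0729) missed the threshold. LOC109083255 had 34.5, 36.5 and 28.5 TMM-scaled CPM in lead brains, against 89.2, 40.5 and 59.6 in control brains, lower in each lead library. Its log2 fold change was -0.93 (SE 0.28, unadjusted p = 0.0106, edgeR adjusted p = 0.21), with a DESeq2 adjusted p of 0.0398, and it was -0.59 without control replicate 1. LOC109113275 had 3.18, 2.51 and 4.61 TMM-scaled CPM in lead brains, against 9.03, 4.72 and 10.47 in control brains, and a log2 fold change of -1.23 (SE 0.38, unadjusted p = 0.0125, edgeR adjusted p = 0.216). Its unadjusted p was 0.0513 without control replicate 3. The row with the symbol slc12a2 in the table had 202, 43.7 and 43.4 TMM-scaled CPM in lead brains, against 117, 29.7 and 130.0 in control brains. Lead replicate 1 and control replicates 1 and 3 were high and the other 3 libraries low, whichever group they belonged to. The 2 other tested SLC12A2 copies, LOC109049491 (-0.53) and LOC109052420 (-0.01), overlapped, and 2 more were below the filter.

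The gene slc12a3 encodes the sodium-chloride cotransporter known from kidney tubules and fish ionocytes. It had 33.1, 36.8 and 36.5 TMM-scaled CPM in lead brains, against 21.98, 29.02 and 18.1 in control brains. All lead libraries were above all control libraries, with a log2 fold change of 0.62 (SE 0.20, unadjusted p = 0.0133, edgeR adjusted p = 0.219) and an unadjusted p of at most 0.0423 in 16 alternatives. The list of ionocyte markers held 6 rows, of which only slc12a3 itself passed the filter. The 4 foxi1 copies on it had at most 0.771 FPKM in any library. A part of ionocytes in the slc12a3 level was not tested. SLC12A1 (LOC109076175) had no counts in any library. SLC12A8 and SLC12A9, for which chloride cotransport is not established, gave 6 tested copies, of which none had an unadjusted p under 0.05. Their log2 fold changes ran from -0.25 to 0.55. The most abundant, LOC109090178, had 23.4, 27.2 and 24.3 TMM-scaled CPM in lead brains, against 26.1, 34.1 and 28.6 in control brains, and slc12a8 had 3.48, 2.43 and 3.08 TMM-scaled CPM in lead brains, against 1.99, 1.41 and 2.76 in control brains. The SLC12A9 copy LOC109079644 was highest in replicate 2 of both groups, with 1.81, 13.2 and 2.62 TMM-scaled CPM in lead brains, against 2.46, 11.2 and 4.58 in control brains.

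The members that were lower tended to have short gene models. Implied transcript length, obtained from counts and FPKM, had a median of 1210 bases in the 12 members that were lower, 2738 in the 4 that were higher and 2133 in the 37 others, against 1692 bases over all genes tested. Of 12 members under 1000 bases, 5 were lower and 0 higher, where 7.68% of all genes of that length were lower and 7.02% higher. Between 1000 and 2000 bases, 4 of 15 were lower and 1 higher, against 9.2% and 7.52% of genes. At 2000 bases or more, 3 of 26 were lower and 3 higher, against 9.04% and 7.85%. Spearman's rho between log2 fold change and implied length was 0.48 over the 53 members and 0.024 over all 32149 genes tested, as a description, since copies share libraries and reads. The relation among members is plotted by role.

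**Figure D4:**
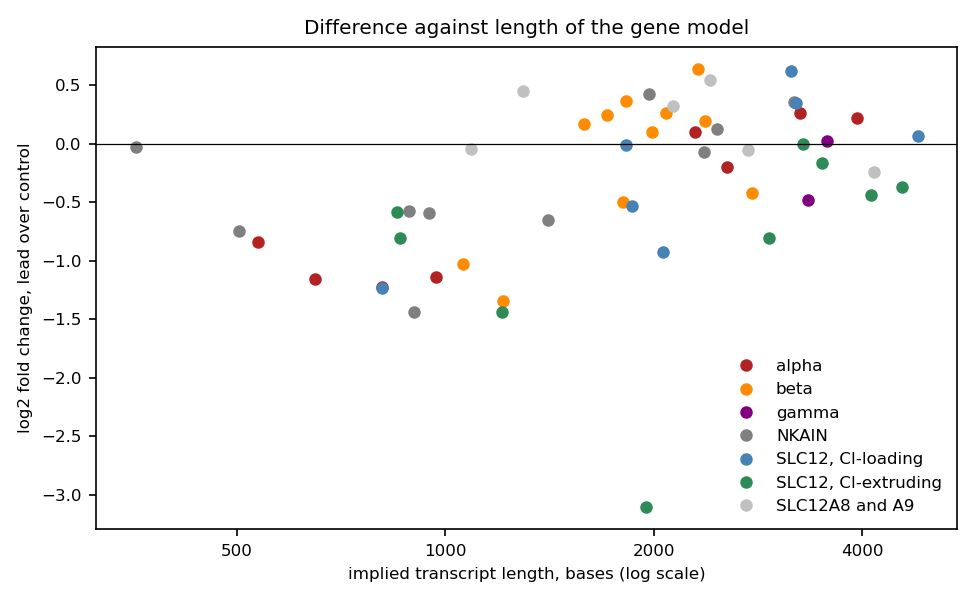
Log2 fold change of lead over control against implied transcript length (log axis, bases) for the 53 tested members, coloured by role. All points under 1000 bases lie below 0, the highest, LOC109099222, at -0.02, and most points above 2000 bases lie near 0.

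The short alpha-1 model lies just upstream of an abundant neighbour, and a short alpha-3 model lies farther upstream of another. LOC109052054 ends 5 bases before the start of LOC109052027, on the same strand. The table describes LOC109052027 as a hypothetical protein, and gives both rows the same KEGG number, which it also gives to rows described as calsequestrin. The level of LOC109052027 was 435, 353 and 407 FPKM in lead brains, against 433, 390.4 and 364 in control brains, with a log2 fold change of 0.11 (SE 0.15, unadjusted p = 0.458). LOC109052054 amounted to 6.22%, 8.99% and 10.9% of its downstream neighbour's FPKM in lead brains, against 21.7%, 14.1% and 26.3% in control brains. LOC109112427, which was not past an unadjusted p of 0.05, lies 9851 bases upstream of LOC109112033, a hypothetical protein with the same KEGG number. LOC109112033 had 299, 315 and 323 FPKM in lead brains, against 192, 301 and 178 in control brains and a log2 fold change of 0.58 (SE 0.22, unadjusted p = 0.0333), opposite in sign to LOC109112427. The alpha-3 copies that were lower, LOC109044951 and LOC109065990, were in no such pair.

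The same was measured over the whole table, for neighbouring tested models on 1 strand that share a KEGG number. They lie under 200 bases apart, with overlap allowed, a definition chosen after the members' values were seen. In 253 of 354 such pairs (71.5%) the upstream model had the lower log2 fold change, with a median difference of -0.27. In 858 neighbouring pairs that did not share a number, a set that admits models with no number, the share was 58.2% and the median difference -0.15. The median log2 ratio of upstream to downstream model, relative to each pair's mean, was -0.188, -0.149 and -0.043 in lead libraries, against 0.079, 0.062 and 0.273 in control libraries. In the pairs that did not share a number it was -0.088, -0.029 and -0.036 in lead libraries, against 0.011, 0.0065 and 0.088 in control libraries. All lead libraries thus had a lower upstream share than all control libraries in both kinds of pair. Control replicate 3 had the highest ratio in both, and also the highest summed SLC12A5. No SLC12A5 copy was in a pair with a shared number, and LOC109052054 was the only member that was lower in one. The part of the upstream difference in the lower values of the short pump copies and of the SLC12A5 copies was not tested. The lower SLC12A5 copies were not all short, with implied lengths of 1207 (LOC109090241), 1950 (LOC109110634) and 2936 bases (LOC109052155). Removing a smooth trend on implied length from each library, an alternative added after the data were seen, left 5 SLC12 members lower and 2 higher and 7 pump or NKAIN members lower and 3 higher. That trend was fitted over all genes tested, where Spearman's rho was 0.024, so it could remove little of a relation seen among members only. LOC109052054 went from -1.14 to -1.09. A part of short or upstream models in the members' differences was thus not tested by it.

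**Figure D5:**
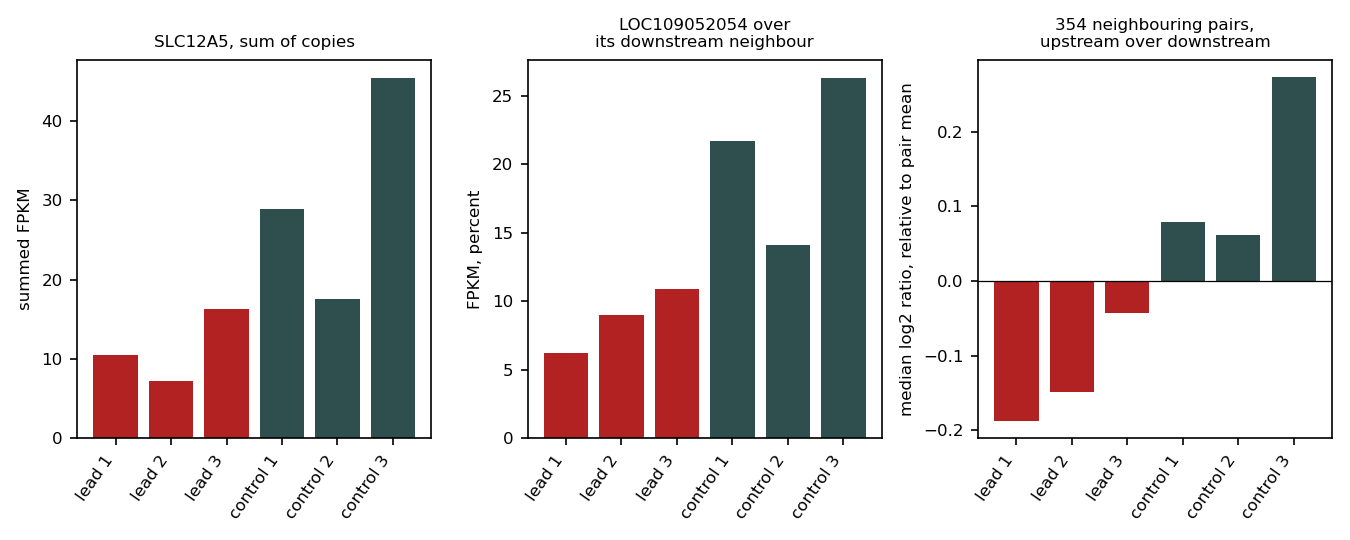
Summed FPKM of the 10 SLC12A5 copies (left), FPKM of LOC109052054 as a percentage of its downstream neighbour (middle), and median log2 ratio of upstream to downstream model over 354 neighbouring pairs (right), in each lead and control library. In all 3 panels the lead bars lie below the control bars and control replicate 3 is highest. No SLC12A5 copy is in such a pair, and a relation between the panels was not tested.

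Regulators and partners of these transporters, listed by description, gave 84 genes, of which 58 were tested. EdgeR called 0 of them at an adjusted p under 0.05, and at an unadjusted p under 0.05, 9 were lower and 4 higher, beside 8.77% and 7.54% of all genes. Without control replicate 1 or lead replicate 2, 5 were lower, and without control replicate 3 or lead replicate 1, 4 were lower. Without control replicate 2, 8 were higher. In at least 1 of 16 alternatives, LOC109112072, LOC109112417, LOC109079128 and LOC109095927, described below, had an adjusted p under 0.05. Among these alternatives, DESeq2 called 2.22% of all genes lower and 1.95% higher at that threshold. Kelch-like protein 3, which targets WNK kinases for degradation, was higher in 3 of 4 copies. LOC109112072 had 363, 484 and 392 TMM-scaled CPM in lead brains, against 249, 285 and 262 in control brains, a log2 fold change of 0.64 (SE 0.15, unadjusted p = 0.00343, edgeR adjusted p = 0.181). LOC109112417 was at 0.69 (SE 0.19, unadjusted p = 0.00621) and LOC109101437 at 0.58 (SE 0.20, unadjusted p = 0.0219), both also without overlap, and LOC109101437 missed an unadjusted p of 0.05 in 5 of 16 alternatives, while LOC109074731 was at 0.00 (SE 0.31, unadjusted p = 0.989). A WNK1 copy, LOC109079128, was higher as well, with 286, 274 and 196 TMM-scaled CPM in lead brains, against 143, 182 and 168 in control brains. Its log2 fold change was 0.62 (SE 0.18, unadjusted p = 0.0101, edgeR adjusted p = 0.209). It was the 1 higher copy of 15 tested WNK copies, of which 0 were lower, where 7.54% of all genes were higher. The median log2 fold change of these WNK copies was -0.02. WNK kinases act through SPAK and OSR1 to activate NKCC1 and inhibit the KCC cotransporters. The most abundant SPAK copy, LOC109047736, was at 0.27 (SE 0.24, unadjusted p = 0.3) with overlap, and 0 of 8 SPAK and OSR1 copies had an unadjusted p under 0.05 with edgeR.

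The lower regulators included partners of the kinases and of the pump. LOC109095927, a copy of MO25, a scaffold that activates SPAK and OSR1, had 16, 16.9 and 20.1 TMM-scaled CPM in lead brains, against 28.6, 29.9 and 27.3 in control brains, without overlap (-0.69 (SE 0.16, unadjusted p = 0.00242, edgeR adjusted p = 0.17)). A phospholemman copy, LOC109062857, an FXYD protein that inhibits the pump until it is phosphorylated, had 46.5, 60.01 and 44.4 TMM-scaled CPM in lead brains, against 82.7, 74.00 and 67.02 in control brains (-0.57 (SE 0.17, unadjusted p = 0.00932, edgeR adjusted p = 0.209)). An FXYD6 copy, LOC109063421, was at -0.66 (SE 0.21, unadjusted p = 0.0148), and its unadjusted p was 0.058 without control replicate 2 and 0.0508 without lead replicate 1. The more abundant FXYD6 copy, LOC109050536, overlapped, at 0.18 (SE 0.17, unadjusted p = 0.331). Of 6 tested FXYD and phospholemman copies, 2 were lower and 0 higher, and their mean summed CPM in lead brains was 0.997 of that in control brains. A Kir4.1 copy (LOC109093098, -0.67 (SE 0.23, unadjusted p = 0.0201)), through which glia clear potassium, and a ClC-2 chloride channel copy (LOC109110232, -0.90 (SE 0.34, unadjusted p = 0.029)) were also lower. The libraries of the groups overlapped for LOC109093098 but not for LOC109110232. They also overlapped for the more abundant ClC-2 copy, LOC109096963, at -0.34 (SE 0.36, unadjusted p = 0.368). With 1 library left out, the unadjusted p reached at most 0.0716 for LOC109093098 and 0.0826 for LOC109110232. The other 4 lower regulators were a second MO25 copy and 3 bicarbonate or anion exchangers of the SLC4 family. Of 5 tested MO25 copies, 2 were lower and 0 higher. Of 15 tested SLC4 copies, 3 were lower and 0 higher, with a median log2 fold change of 0.016. The MO25 copy LOC109104140 lost an unadjusted p under 0.05 in 11 of 16 alternatives. Among the SLC4 copies, LOC109075496 lost it in 9, and LOC109072596 and LOC109098817 in 5 each.

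Markers of cell types were counted in the same way, and edgeR called 0 of them at an adjusted p under 0.05. The counts below, at an unadjusted p under 0.05, stand beside 8.77% of all genes tested lower and 7.54% higher. Of 20 tested astroglial markers, 9 had an unadjusted p under 0.05 on the lower side and 1 on the higher side, with a median log2 fold change of -0.67 and summed levels that did not overlap between lead and control libraries. Astroglia express beta-2 and Kir4.1 in mammals. Of 41 neuronal markers, 10 were lower and 1 higher, with a median of -0.17. Neurons express alpha-3 and SLC12A5. Of 26 oligodendrocyte markers, 6 were lower and 0 higher, with a median of -0.27. Their summed level was highest in control replicates 1 and 3, as was that of SLC12A5. One copy each in the astroglial and neuronal lists and 3 in the oligodendrocyte list had no counts. The part of these cell types in the lower beta-2 and SLC12A5 levels was not tested. Muscle and blood markers were fewer, with 2 of 10 and 1 of 11 lower and 0 and 1 higher. Of 6 tested ependymal and choroid plexus markers, 0 were lower and 1 higher.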

How the data were processed

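Brain RNA of 3 lead and 3 control carp libraries was measured by poly(A) RNA sequencing, per the labels' protocols, which also speak of an adipose type. HISAT2 2.0, StringTie 1.3.0, Bowtie 0.12.2 and the mouse build mm8 are named, without their roles, in the submitters' processing notes. The deposited counts are the authors' whole-number counts per gene, per the file headers, and the authors scaled FPKM per kilobase and library size. The assembly of the positions, and how reads on strands or shared between near-identical copies were assigned, are not given in the sources used here. Values of single copies carry that uncertainty, and class sums were therefore given too.

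Counts were tested with edgeR 4.0.16 (R 4.3.3, TMM, robust quasi-likelihood) over the 32149 genes that reached an FPKM of 1 in 3 or more libraries, with p-values adjusted over all of them by the Benjamini-Hochberg method. The biological coefficient of variation was 36.6%. Implied length is counts divided by FPKM and library size. Alternatives used DESeq2 1.42.0, limma 3.58.1, other scalings and filters, the replicate number as a block, and each library left out with the tested genes kept. The removal of a length trend was added after the data were seen. The fits were tested on simulated data.

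The members, and the lists of regulators and cell markers, were chosen with earlier results of these data known. Named with values in each library are members called at an adjusted p under 0.05, up to 12 with an unadjusted p under 0.05 and no overlap, and the most abundant tested copy of each class, except for 1 class that is in the counts but not reported here on its own. Likewise named are up to 6 regulators and the most abundant WNK and SPAK or OSR1 copy. Others were named after their values were seen. Symbols called RefSeq's come from its gene table of the carp assembly ASM1834038v1, which matched 51 of 74 members and was used for names only.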

Additional observations from a re-analysis of the deposited data

How the results depend on the processing

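Most single-gene differences kept their direction and side of an unadjusted p of 0.05 over 16 alternatives. The members that lost an unadjusted p under 0.05 in any of them are given with that value above or, for LOC109079281, with the number of losses. DESeq2 called 7 members at an adjusted p under 0.05 where edgeR called 0. With library totals only, limma on log2(FPKM + 1) or log2(FPKM + 0.1), or edgeR with no trend and not robust, 1 pump or NKAIN member was higher in place of 3. Removing the length trend gave 2 higher SLC12 members in place of 1. SLC12A5 copies lower numbered 5 in place of 3 with no filter or with filterByExpr. The cause of these shifts was not tested, except that the wider filters admit more copies. Leaving out 1 library at a time gave 1 to 4 higher and 5 to 9 lower pump or NKAIN members, 1 to 2 higher and 3 to 6 lower SLC12 members, 3 to 8 higher and 4 to 9 lower regulators, and 2 to 4 lower SLC12A5 copies.

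Summed levels moved with the scale. As log2 of lead over control, NKAIN1 was 0.31 in FPKM, 0.40 in TMM-scaled CPM and 0.41 in FPKM with the TMM correction. On the same 3 scales NKAIN3 was -0.43, -0.10 and -0.33 and beta-2 was -0.60, -0.47 and -0.50. Alpha-1 was -0.61 in FPKM and -0.34 in CPM. Alpha-3 was -0.03 in FPKM, 0.15 in CPM and 0.073 with the correction, so its sign depends on the scale. CPM weight long copies more than FPKM do.

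Among the members named by rule or with an unadjusted p under 0.05, the sign turned for 6, of which all but LOC109083365 had values near 0. Other members were not counted. One of them, LOC109052420, turned from -0.0074 to 0.0103 with no filter beyond 1 count and to 0.0189 with the length trend removed. With all 6 libraries, LOC109074108 was -0.0017 with library totals only and -0.0015 and -0.0014 with limma at pseudocounts of 1 and 0.1. LOC109084072 was -0.011 with limma at either pseudocount, and LOC109099222 was 0.0075 with the length trend removed. Leaving out 1 library at a time gave -0.0041 to 0.20 for LOC109074108, -0.047 to 0.21 for LOC109084072, -0.24 to 0.20 for LOC109099222, -0.014 to 0.30 for LOC109070507, -1.46 to 0.0022 for LOC109083365 and -0.18 to 0.055 for LOC109113605.

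Replicate numbers are shared by lead and control libraries but are not stated to pair them. The correlations of same-numbered libraries' deviations were 0.137, 0.038 and 0.090, and lead replicate 2 correlated best with control replicate 3. With the replicate block, 9 pump or NKAIN members were lower and 3 higher, 5 SLC12 members lower and 1 higher, and 9 regulators lower and 5 higher. With 3 libraries a group and copies of few counts, differences of low-level copies were not detectable unless large.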
